A study of Mus musculus with 18 samples.

Results

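The clusters labelled monocyte among mouse bone marrow hematopoietic progenitors (HPs) were examined from embryos of day 18.5 (E18.5), newborns (P0) and adults. They are the cells whose deposited cluster code begins with Mono and does not name mast cells, which gave 1761 of the 15670 HP cells of these 3 libraries and of the 56201 cells of the whole series. E18.5 had 5 codes (Mono1i, Mono1ii, Mono1iii, Mono1iv and Mono2), P0 had 2 (Mono1 and Mono2) and the adult had 3 (Mono4, Mono5 and Mono6). The codes were assigned in each library by the study's own clustering of the same counts, so the genes that set a code apart describe it and were not tested.

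All 3 libraries came from C57B6/J mice, with no transgene or treatment, and held marrow cells sorted as CD45+Lineage-c-Kit+. Each library was a single pool (9 mice for E18.5, 6 for P0 and 4 for the adult), and the E18.5 and P0 mice came from 2 to 3 litters. The paper describes adult marrow from leg, pelvic and spine bones with red cell lysis. It describes fetal marrow from the skeleton without the head, and without lysis. With 1 library per stage there was no replicate error, and stage, pool, litter, bones, handling and library cannot be told apart. No p-value was therefore computed. A level is the summed unique molecular identifier (UMI) count of a gene per 1000000 UMIs (CPM) in a code, with an exact 95% Poisson interval, and a share of cells carries an exact 95% Clopper-Pearson interval. A count of 0 is bounded by 3 counts, the one-sided 95% limit, for shares of cells with a UMI and for folds alike. All cover counting error only: a level resting on 100 UMIs has bounds 18.6% below and 21.6% above it, and one resting on 1000 UMIs has bounds 6.10% below and 6.40% above.

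Monocytes arise in the marrow from granulocyte-monocyte progenitors under the control of the transcription factors PU.1 and Irf8, and depend on Csf1r, the receptor for the growth factor CSF1. Classical mouse monocytes carry Ly6C, encoded in part by Ly6c2, and nonclassical monocytes lose it and gain Fc receptor Fcgr4. Tissue macrophages, microglia, osteoclasts and dendritic cells share much of this machinery, and fetal tissues hold macrophages seeded before marrow hematopoiesis begins.

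The Mono codes made up 14.1% of E18.5 HP cells (489 of 3477, 12.9 to 15.3), 5.46% of P0 HP cells (339 of 6208, 4.91 to 6.06) and 15.6% of adult HP cells (933 of 5985, 14.7 to 16.5). The intervals of E18.5 and the adult overlapped, and that of P0 lay below both. The E18.5 share depended on shallow cells outside the Mono codes, since it was 19.4% among cells with at least 1000 UMIs. Codes ran from 28 cells (E18.5 Mono1iv) to 402 cells (adult Mono4). Median UMIs per cell in a code ran from 4135.5 (adult Mono6) to 21261 (adult Mono5), against medians over each whole HP library of 12364 (E18.5), 19447.5 (P0) and 6747 (adult). No cell barcode was shared between Mono cells of different stages, and the Mono barcodes that also occurred in some other library of the series numbered 6 at E18.5, 6 at P0 and 17 in adults.

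The marker genes named for the population, Csf1r, Ly6c2 and Irf8, did not go together across stages. Csf1r was highest in E18.5 Mono2, at 1900.2 CPM (1799.6 to 2005), followed by Mono1iv at 986 CPM (902 to 1076), Mono1iii at 830.3 CPM (741 to 928), P0 Mono2 at 564 CPM (529 to 599.7), E18.5 Mono1ii at 418 CPM (388 to 449), Mono1i at 412 CPM (387 to 438) and P0 Mono1 at 285 CPM (267 to 304). The adult codes lay below all of these, with Csf1r at 89.4 CPM (81.8 to 97.4) in Mono4, 49.2 CPM (36.0 to 65.6) in Mono6 and 35.8 CPM (31.6 to 40.5) in Mono5. Of neighbours in this order, E18.5 Mono1iv and Mono1iii, E18.5 Mono1ii and Mono1i, and adult Mono6 and Mono5 had overlapping intervals. The order depended on depth. P0 cells with fewer than 15000 UMIs had Csf1r at 1358 CPM in Mono2 and 575 CPM in Mono1, against 349 and 177 CPM in deeper cells. The shallower P0 Mono2 cells thus lay above E18.5 Mono1iii, all 61 cells of which were under that depth.

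Ly6c2 ran the opposite way. It stood at 1306 CPM (1276 to 1336) in adult Mono4 and 874 CPM (852 to 896) in adult Mono5, where 96.0% and 71.3% of cells had at least 1 Ly6c2 UMI. It reached only 129 CPM (107 to 154) in adult Mono6, 86.9 CPM (75.7 to 99.3) in E18.5 Mono1i and 28.7 CPM (23.3 to 35.1) in P0 Mono1. In E18.5 Mono1ii, Mono1iii and Mono1iv and in P0 Mono2 it lay between 7.86 and 22 CPM, and in E18.5 Mono2 it was detected in 0 of 80 cells, which allows a share of up to 3.75%. Even the perinatal codes with most Ly6c2 had it in few cells, 16.2% of E18.5 Mono1i and 8.00% of P0 Mono1. P0 erythroid cells, with a median of 37938 UMIs, had it in 7.10% of cells, and P0 B-lineage cells in 2.58%. Their summed levels were lower than in P0 Mono1, at 2.26 and 3.37 CPM. At E18.5, 0.658% of B-lineage cells had it. Ly6c2 also differed with depth. Cells with fewer than 15000 UMIs had it at 74.6 CPM (57.8 to 94.7) in P0 Mono1 and 209 CPM in adult Mono5, against 11.6 and 969 CPM in deeper cells.

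Irf8 followed neither gene. It was highest in adult Mono6, at 1252 CPM (1182 to 1326), and in E18.5 Mono1ii, at 1045 CPM (998 to 1093). Adult Mono4 had 576 CPM (556 to 596), adult Mono5 372 CPM (358 to 386) and the other E18.5 codes 153 to 315 CPM. The P0 codes were lowest, with Irf8 at 105 CPM (90.8 to 122) in Mono2 and 62.3 CPM (54.1 to 71.4) in Mono1. The values depended on depth, since P0 cells with fewer than 15000 UMIs had Irf8 at 195 CPM in P0 Mono2 and 125 CPM in P0 Mono1. Cells under the same depth had 329 CPM in E18.5 Mono2 and 1033 CPM in adult Mono5. No rank of all codes at equal depth is given.

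**Figure D1:**
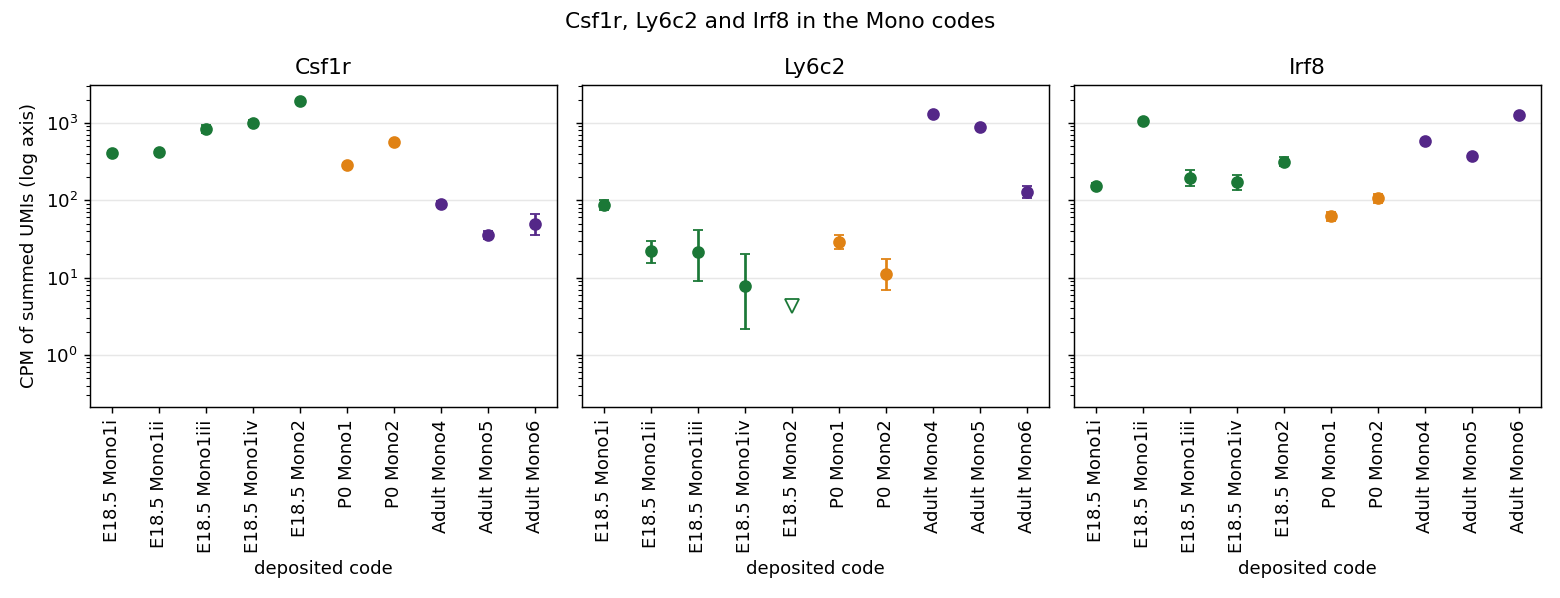
Levels of Csf1r, Ly6c2 and Irf8 (CPM of summed UMIs, log axis) in the 10 Mono codes, E18.5 in green, P0 in orange and adult in purple, with exact 95% Poisson intervals; the open triangle marks the floor of 3 UMIs for Ly6c2 in E18.5 Mono2, which had none. Csf1r is lower and Ly6c2 higher in adult Mono4 and Mono5 than in every E18.5 and P0 code.

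Depth and free RNA were checked for these genes by thinning each cell to 1000 UMIs, which left out 3 P0 and 11 adult Mono cells. After thinning, Ly6c2 was found in 61.2% of adult Mono4 cells and 38.4% of adult Mono5 cells, against 6.81% of adult B-lineage cells (median 2907 UMIs before thinning) and 2.54% of adult erythroid cells (median 27905.5 UMIs). Adult Mono6 had Ly6c2 in 6.63% of thinned cells, no more than the B-lineage cells of the same library. Its summed level of 129 CPM was nevertheless above the 40.0 CPM of B-lineage and 11.9 CPM of erythroid cells, and Ly6c2 stood at 340 CPM in the 24 Mono6 cells with both MHC class II and neutrophil genes and at 65.4 CPM in the 84 with MHC class II alone, so share and level did not give the same order. Csf1r was found in 88.8% of thinned E18.5 Mono2 cells and 34.6% of Mono1i cells, and in none of the 152 B-lineage cells of that library, which allows up to 1.97% (2 of them had a Csf1r UMI before thinning). Ly6c2 in adult Mono4 and Mono5 and Csf1r in these E18.5 codes were thus above the background cells. Irf8 stood at 68.5 CPM in P0 B-lineage cells, no lower than in P0 Mono1, and at 3.60 CPM in P0 erythroid cells. Adult B-lineage cells had Irf8 at 101 CPM and adult erythroid cells at 4.11 CPM. Irf8 was found in 54.5% of P0 and 35.2% of adult B-lineage cells, against 4.73% and 6.33% of erythroid cells. The B-lineage cells therefore cannot serve as a background for Irf8, and P0 erythroid cells lay below P0 Mono1.

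Adult Mono4 joined all 3 markers, with Csf1r in 65.9% of its cells, Ly6c2 in 96.0% and Irf8 in 98.3%. Since the markers were high in different codes elsewhere, the codes were compared by their own leading genes, the 10 with the largest CPM ratio to the other HP cells of the same library. Monocyte-list genes were 5 of the 10 leading genes of adult Mono4 and 4 of those of adult Mono5, and Fn1 in E18.5 Mono1iv was the only one among the leading genes of the other 8 codes, while Mono1iii led with 4 genes of nonclassical monocytes. The monocyte list as a whole did not follow this order, taking 0.585% of UMIs in E18.5 Mono1i and 0.366% in adult Mono4. In adult Mono4, F13a1, the A chain of coagulation factor XIII, stood at 415 CPM, Ms4a6c at 544 CPM, Ccr2, the chemokine receptor of classical monocytes, at 133 CPM and Ly86 at 201 CPM, and with Csf1r these were the 5. The same cells carried the granule proteases of early myeloid progenitors. Mpo, encoding myeloperoxidase, was at 5027 CPM in adult Mono4, Prtn3, encoding proteinase 3, at 5511 CPM, Elane, encoding neutrophil elastase, at 2498 CPM and Ctsg, encoding cathepsin G, at 2522 CPM. Kit, the gene of the sorted receptor, was at 94.2 CPM and was found in 62.7% of the cells.

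Adult Mono5 shared the granule genes (Mpo at 3381 CPM and Prtn3 at 5456 CPM) and 4 monocyte-list genes among its leading genes, Ly86, Ms4a6c, F13a1 and Irf8. It differed from Mono4 in histone messages, which accumulate in S phase. Hist1h1b was at 2742 CPM in Mono5 against 887 CPM in Mono4, and Hist1h2ap at 2124 against 349 CPM. Over the 9 histone genes listed, 1.10% of Mono5 UMIs and 0.241% of Mono4 UMIs fell in the list, whereas the 18 cell cycle genes took 0.479% and 0.429%. The shallower Mono5 cells differed from the deeper ones. The 116 cells with fewer than 15000 UMIs had Ly6d at 1037 CPM, Cox6a2 at 522 CPM and Irf8 at 1033 CPM, and Mpo at 329 CPM, against 7.55 CPM Ly6d, 4.18 CPM Cox6a2, 277 CPM Irf8 and 3818 CPM Mpo in the 239 deeper cells. These sums came from a minority, since Cox6a2 was found in 77 and Ly6d in 64 of the 355 cells of the code. The first leading gene of the code, Igha, an immunoglobulin heavy chain gene, came from 5 of 355 cells.

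Adult Mono6 carried genes of antigen presentation, with H2-Aa and H2-Eb1 at ranks 7 and 8 of its leading genes, after Ifi205, Tlr3 and Batf3 among others. H2-Aa stood at 2064 CPM (1973 to 2159), H2-Eb1 at 1536 CPM and Cd74, the invariant chain, at 4923 CPM, against 0.524 CPM H2-Aa and 2.09 CPM Cd74 in adult Mono4. Batf3, a transcription factor of cross-presenting dendritic cells, was at 206 CPM and Clec9a, one of their receptors, at 79.1 CPM. Among its 10 leading genes 4 were on the dendritic cell list and none was on the monocyte list, so its leading genes go against its label, and no adult code was named DC. Part of the code also held neutrophil messages. S100a9 was at 4955 CPM and Camp at 2615 CPM, against 1198 CPM S100a9 in adult B-lineage cells. Of 166 thinned cells, 84 had at least 5 MHC class II UMIs per 1000 with fewer than 5 of the neutrophil list, 19 the reverse, 24 both and 39 neither, and 33 and 74 cells held 3 to 7 UMIs of the respective lists, near the limit. In thinned adult B-lineage cells, S100a8 had a UMI in 71.4% and S100a9 in 64.2%. The share of such cells that would pass the neutrophil limit was not computed, and the part of free RNA in this split was not tested.

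**Figure D2:**
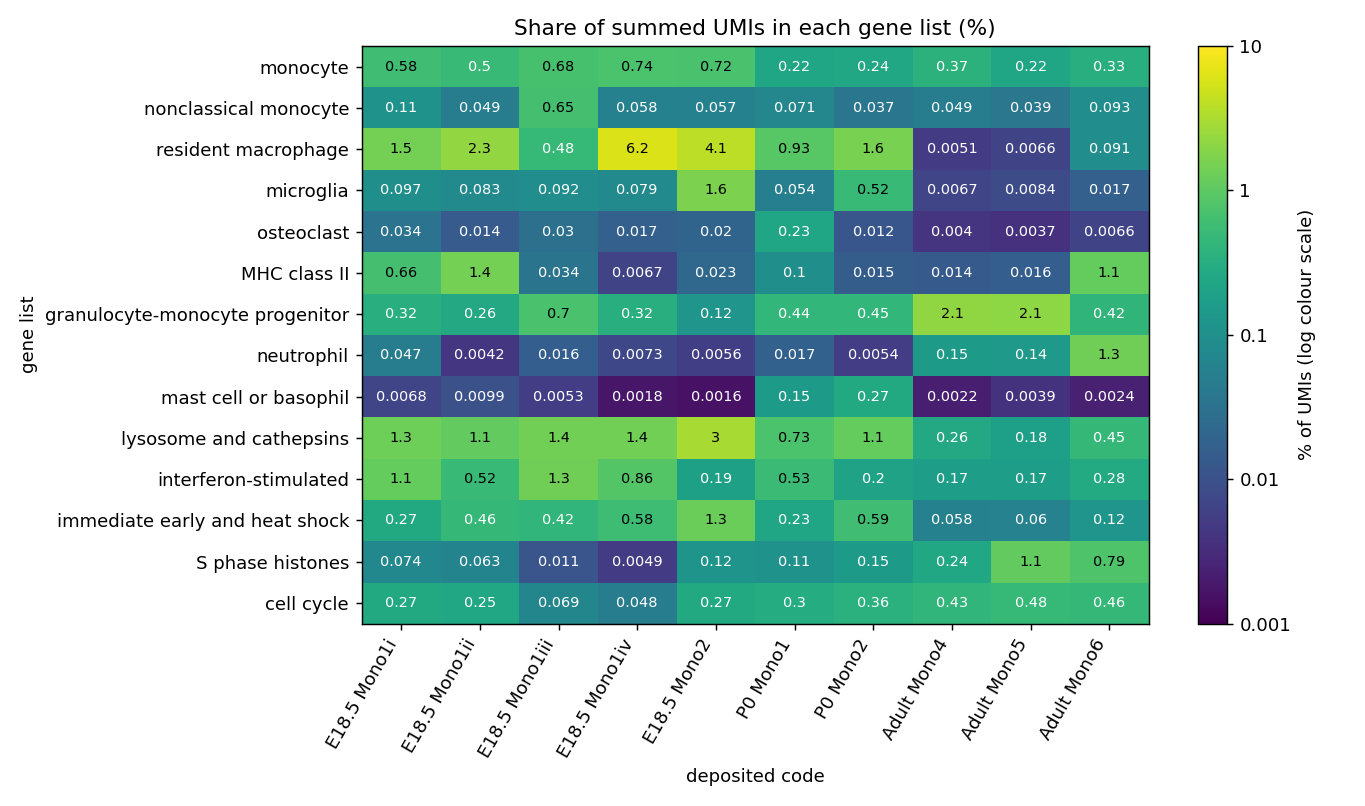
Share of each code's summed UMIs (%, log colour scale, values printed) that fell in 14 gene lists, with codes in columns. Resident macrophage genes take 0.483% to 6.21% of UMIs in the E18.5 codes and 0.929% to 1.58% at P0 against 0.00511% to 0.0905% in the adult, and granulocyte-monocyte progenitor genes take about 2.1% in adult Mono4 and Mono5.

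The E18.5 codes differed in their leading genes. Mono1i, the largest with 191 cells, held Ly6c2 in a minority of cells, and interferon-stimulated and macrophage genes. Ccr2 was at 555 CPM (526 to 585), Ms4a6c at 1268 CPM and Lyz2, encoding lysozyme, at 6203 CPM. Ifitm3 reached 2742 CPM and Ifi27l2a 1821 CPM, and the 20 interferon-stimulated genes together took 1.15% of UMIs. Among its leading genes, Cd209a (50.7 CPM) was found in 13.1% of cells, Spic (66.4 CPM) in 16.8% and Cxcl10 (165 CPM) in 16.8%, whereas Ms4a4c was found in 76.4% and Clec4n in 66.0%.

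Mono1ii contained cells of separate kinds. Of its 129 cells, 56 had at least 5 MHC class II UMIs per 1000 and fewer than 5 of the resident macrophage list, 70 had the reverse, 3 had both and none had neither, and 1 cell for each list held 3 to 7 UMIs, near the limit. In the 56 cells, Irf8 was at 2141 CPM, Clec9a at 199 CPM, Naaa at 1190 CPM and Id2 at 1581 CPM, whereas Csf1r was at 20.7 CPM. In the 70 cells, Csf1r was at 743 CPM, F13a1 at 3099 CPM, Gas6, a ligand for the clearance of dying cells, at 574 CPM and Irf8 at 119 CPM. The high Irf8 of Mono1ii and its moderate Csf1r thus came from different cells of the code. In Mono1i the same limits left 30 cells with MHC class II alone, 112 with macrophage genes alone, 20 with both and 29 with neither, with 14 and 28 cells near the limits. Ly6c2 was at 8.99 CPM in the 30 cells, 95.8 CPM in the 112 and 157 CPM in the 29, with 0 UMIs in the 20.

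**Figure D3:**
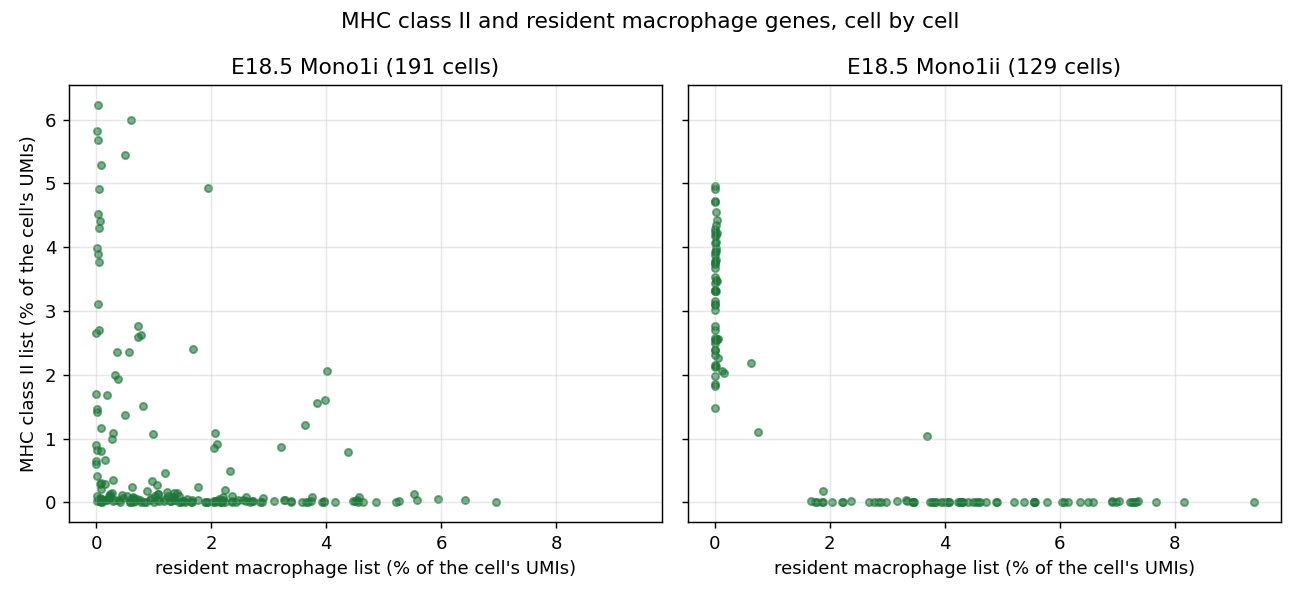
Each point is 1 cell; the horizontal axis gives the share of its UMIs (%) in the resident macrophage list and the vertical axis the share in the MHC class II list. Cells of E18.5 Mono1ii lie along both axes with 3 cells holding both lists, and Mono1i cells are more often between them.

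Mono1iii was the code closest to the nonclassical monocyte list. Ace, encoding angiotensin-converting enzyme, stood at 565 CPM (492 to 646) in 88.5% of its 61 cells, Treml4 at 446 CPM and Fcgr4 at 963 CPM (866 to 1067), with Eno3 at 318 CPM. These were 4 of its 10 leading genes. Nr4a1, the nuclear receptor on which nonclassical monocytes depend, was at 379 CPM, against 24.2 to 50.3 CPM in the other E18.5 codes. Cell cycle genes took 0.0687% of its UMIs, against 0.228% over all Mono cells of E18.5, and Kit was detected in 0 of 61 cells, which allows up to 4.92%. Its median of 5712 UMIs was the lowest of the E18.5 codes.

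Mono1iv, with 28 cells, had the largest share of UMIs in the resident macrophage list among the Mono codes. Apoe reached 29845 CPM, C1qa, a subunit of complement C1q, 5843 CPM (5635 to 6057), Fcna 4685 CPM, Lyve1, a hyaluronan receptor, 2306 CPM and Timd4, a receptor for phosphatidylserine, 452 CPM (395 to 514). Lyve1 and C1qa were found in every cell of the code. C1qa was not particular to it. It was at 5846 CPM in the 75 E18.5 Mono2 cells with fewer than 15000 UMIs and at 4005 CPM in the 5 deeper ones. The depths were unlike, since 22 of the 28 Mono1iv cells had at least 15000 UMIs. Lyz2 was at 11871 CPM and the chemokine gene Ccl6 at 5663 CPM. MHC class II was near 0, with H2-Aa at 3.93 CPM on 2 UMIs, and Mki67, a proliferation marker, was at 9.82 CPM against 179.8 CPM in Mono1i.

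Mono2 held the microglia list, with 6 of its 10 leading genes there and none on the monocyte list, so its leading genes go against its label. P2ry12, a purinergic receptor of microglia, stood at 884 CPM (816 to 956) and was found in 98.8% of 80 cells, Fcrls at 2225 CPM (2116 to 2338), Sparc at 2098 CPM and Sall1, a transcription factor of microglia, at 165 CPM (136 to 198). In the other E18.5 codes P2ry12 was at 7.96 to 35.6 CPM and Sall1 at 0. The code also had the highest immediate early genes, with Jun at 2629 CPM and Egr1 at 1355 CPM, and the highest Ccl4, at 3134 CPM. Surface CD48, counted with an antibody, had a median of 9 counts per cell, against 90 to 160 in the other E18.5 codes and 84 in the remaining HP cells of that library. CD150, CD135 and Sca-1 antibodies had medians of 0 to 9 counts in all Mono codes. The CD135 median in the other HP cells was 1 at E18.5 and 0 at P0 and in the adult. Low CD135 counts were thus not particular to the Mono codes. Sca-1 was spread above its median in some. Its upper quartile was 39.5 counts in E18.5 Mono1i and 24 in Mono1ii, against 4 in the other E18.5 HP cells. In P0 Mono1 it was 31, against 8 in the other P0 HP cells.

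The stretches before the starts of 4 genes that differed between Mono codes are shown. Ly6c2 and Elane were higher in adult Mono4 and Mono5 than in the other Mono codes, though not among their leading genes. P2ry12 and Fcrls were high in the Mono2 codes. They are the 150 bases before the RefSeq start on the gene's strand (GRCm38.p6), with the letters AGGAAGT or their reverse complement ACTTCCT in capitals, a core bound by Ets factors such as PU.1. The stretch of Ly6c2 lies at chr15:75111972-75112121 (minus strand), Elane at chr10:79886162-79886311 (plus), P2ry12 at chr3:59262986-59263135 (minus) and Fcrls at chr3:87263525-87263674 (minus).
Ly6c2: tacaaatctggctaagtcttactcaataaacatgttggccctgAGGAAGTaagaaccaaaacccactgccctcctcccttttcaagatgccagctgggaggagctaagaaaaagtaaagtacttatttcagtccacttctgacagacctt
Elane: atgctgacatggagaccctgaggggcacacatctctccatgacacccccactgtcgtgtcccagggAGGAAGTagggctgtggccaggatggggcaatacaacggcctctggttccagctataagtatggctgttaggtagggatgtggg
P2ry12: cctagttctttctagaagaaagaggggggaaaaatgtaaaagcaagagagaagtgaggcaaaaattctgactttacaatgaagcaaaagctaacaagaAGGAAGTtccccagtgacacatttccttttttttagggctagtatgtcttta
Fcrls: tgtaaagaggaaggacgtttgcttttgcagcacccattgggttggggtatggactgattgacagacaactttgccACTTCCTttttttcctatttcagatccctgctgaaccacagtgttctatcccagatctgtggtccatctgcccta
The letters were chosen after these sequences were read, and each stretch holds them once. They occur in 5.07% of the 32851 promoter stretches of this length in the table (1665), on either strand. A match is a description of the letters and not a binding site.

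P0 Mono1 (225 cells) was led by Ctsk, encoding the bone-resorbing protease cathepsin K, at 643 CPM (616 to 671), Atp6v0d2 at 105 CPM and Mmp9 at 349 CPM, and by macrophage genes such as Lyve1 at 157 CPM and Mrc1 at 225 CPM. Ctsk was found in 18.2% of the cells. Of 223 thinned cells, 120 passed the limit of 5 UMIs per 1000 for the macrophage list, 17 for the osteoclast list and 32 for the nonclassical monocyte list, with 1 cell passing for both macrophage and osteoclast genes, 10 for both macrophage and nonclassical genes and none for both osteoclast and nonclassical genes. Between 20 and 45 cells lay near these limits.

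P0 Mono2 (114 cells) repeated the microglia genes at lower levels than at E18.5. Fcrls was at 778 CPM (737 to 819.8), Sparc at 698 CPM and P2ry12 at 272 CPM, and 6 of its 10 leading genes were on the microglia list, as at E18.5. It also held mast cell messages, with Cma1, encoding mast cell chymase, at 1334 CPM (1281 to 1388) and Cpa3, encoding carboxypeptidase A3, at 796 CPM, and granule messages, with Mpo at 551 CPM and Elane at 236 CPM. B-lineage cells of the P0 library had Cma1 at 70.4 CPM and Mpo at 116 CPM. The mast cell list was unevenly spread, and 11 of 113 thinned cells passed the limit of 5 UMIs per 1000.

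Depth divided P0 Mono2. Its 65 cells with fewer than 15000 UMIs had the microglia list at 1.28% of their UMIs, near the 1.73% of the 75 E18.5 Mono2 cells under that depth. The 49 deeper P0 cells had it at 0.314%, with a highest single cell of 0.862%, and carried Mpo at 676 CPM and Myb, a progenitor transcription factor, at 217 CPM against 86.8 and 44.7 CPM in the shallower cells. Csf1r was at 1358 CPM in the shallower and 349 CPM in the deeper cells. P0 Mono1 divided likewise, with Apoe at 8171 CPM and Mpo at 50.1 CPM in its 131 shallower cells and 2350 CPM and 660.5 CPM in its 94 deeper cells. Whether doublets have a part in the values of the deeper cells was not tested.

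**Figure D4:**
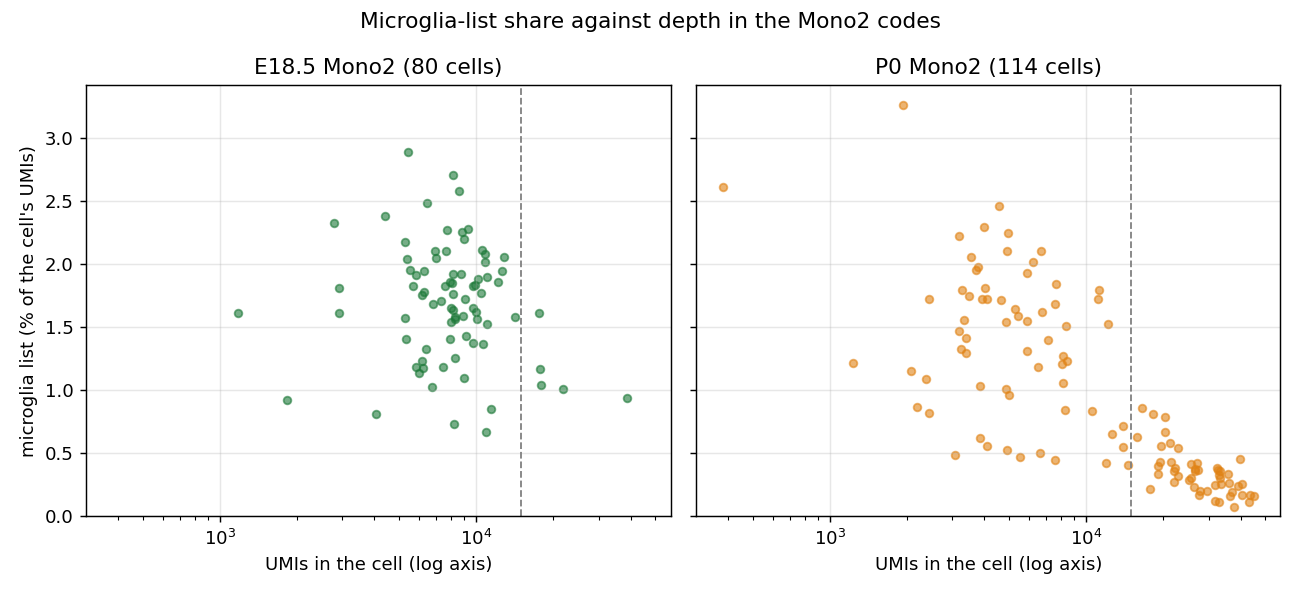
Each point is 1 cell of a Mono2 code, with its UMIs on a log axis and the share of its UMIs in the microglia list (%) on the vertical axis; the dashed line marks 15000 UMIs. The 5 deep E18.5 cells lie between 0.938% and 1.62%, and the 49 deep P0 cells lie between 0.0742% and 0.862%.

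To ask how the codes corresponded across stages, their log2(CPM + 10) profiles were correlated over the 5299 genes with at least 50 CPM in a code. These are descriptions across genes, which are not independent replicates, and the codes of a stage share a library. Across stages, E18.5 Mono1i was most like P0 Mono1 (r = 0.913), and E18.5 Mono2 was most like P0 Mono2 (r = 0.843). Within its own stage, E18.5 Mono1i was closer still to Mono1ii (r = 0.921). P0 Mono2 was likewise closer to P0 Mono1 (r = 0.913) than to E18.5 Mono2. Every E18.5 code was nearest to Mono6 among the adult codes, at r between 0.635 and 0.831, and to a P0 code at r between 0.729 and 0.913. Adult Mono6 was most like a code of another name, P0 DC3 (r = 0.902). P0 Mono2 was closer to the Mono/Mast code of E16.5 (r = 0.891) than to E18.5 Mono2 and had r = 0.832 with adult Mono5, and P0 Mono1 was about as close to that E16.5 code (r = 0.924) as to E18.5 Mono1i. P0 Mono1 also had r = 0.910 with E18.5 DC2. The dendritic cell codes were added to this comparison after their values were seen.

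Between stages, genes were called where the stage with the higher level had at least 50 CPM and 50 UMIs and the ratio was at least 4, with the lower stage floored at 3 UMIs. Over all Mono codes, 12.8% of the 3502 genes compared were called higher at E18.5 than in the adult (450 genes) and 2.83% higher in the adult (99 genes). The sum mixes codes of different kinds, so values per code stand above. Of the 22 resident macrophage genes listed, 17 were called higher at E18.5, 4 were under the minimum and 1 was not in the table. C1qa stood at 2262 CPM at E18.5 and 8.20 CPM in the adult (276-fold), Apoe at 10311 and 46.1 CPM (224-fold) and Lyve1 at 513 CPM and 0 UMIs, at least 2356-fold higher. The median log2 ratio of the genes compared was 0.24, and leaving mitochondrial, ribosomal protein and globin genes out of the totals shifted the median of the other genes by -0.32 and gave 448 and 189 genes. The same step shifted the medians by -0.12 between E18.5 and P0, -0.20 between P0 and the adult and -0.22 between the Mono2 codes.

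Other groups that were higher at E18.5 bore on digestion, antigen uptake and interferon. Of 18 lysosomal genes, 12 were called, among them Lgmn, encoding legumain, at 898 against 6.97 CPM, and Ctss, encoding cathepsin S, at 1479 against 47.0 CPM. All but 2 of 14 scavenger receptor genes, 7 of 11 complement genes, 5 of 6 Fc receptor genes, 14 of 20 interferon-stimulated genes and 6 of 10 iron and heme genes were called, each higher at E18.5. The lists overlap, so these counts are not independent of the macrophage count. Mrc1, Stab1, Cd163, Timd4, Mertk, Folr2 and Lyve1 of the scavenger list are also resident macrophage genes, as are C1qa, C1qb and C1qc of the complement list. Ifi27l2a, for example, was at 1222 against 63.0 CPM (19.4-fold) and Hmox1, encoding heme oxygenase, at 234 against 2.25 CPM (104-fold). Of 14 immediate early and heat shock genes, 10 were called higher at E18.5, with Atf3 at 317 against 0.798 CPM, and the part of cell handling in this was not tested. MHC class II genes were called in 4 of 10 cases, but weighting the codes equally brought the log2 ratio of H2-Aa from 3.29 to 0.28 and that of Cd74 from 3.05 to 0.04, since adult Mono6 holds them.

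The 99 genes higher in the adult included 9 granule and 9 histone genes. Of 11 granule proteases and antimicrobials, 9 were called higher in the adult: Mpo stood at 3872 against 28.0 CPM at E18.5 (138-fold), Elane at 2774 against 4.79 CPM (579-fold) and Prtn3 at 5156 against 45.7 CPM (113-fold). The list includes S100a8 and S100a9, which were also high in background cells of the adult library. S100a9 stood at 798 CPM over the adult Mono codes, against 1198 CPM in adult B-lineage and 397 CPM in adult erythroid cells. In the B-lineage cells Mpo was at 132 CPM, Elane at 121 CPM and Prtn3 at 266 CPM, well below the adult Mono codes. Lyz2 was on the other side, at 4441 CPM at E18.5 and 288 CPM in the adult. Each of the 9 histone genes was called higher in the adult, for example Hist1h1b at 1935 against 149.8 CPM, whereas none of 18 cell cycle genes was called in either direction. Immunoglobulin genes were also among the largest ratios, and Igkc, a light chain gene, stood at 455 CPM in the adult against 0.342 CPM (2 UMIs) at E18.5, with 6219 of its 6263 adult UMIs in 18 cells of Mono5. Mki67 was at 328 CPM in the adult and 190.4 CPM at E18.5. Myb was 18.5-fold higher in the adult and Kit 5.30-fold higher, at 96.0 against 18.1 CPM, although cells of both stages were sorted on c-Kit.

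P0 was compared with the same adult library, so its values are not independent of those above. Of 3213 genes compared, 6.63% were called higher at P0 (213 genes) and 2.12% higher in the adult (68 genes). At P0, 15 of 22 macrophage genes, 9 of 12 microglia genes, 10 of 18 lysosomal genes and 5 of 10 mast cell genes were called higher, and 9 of 11 granule genes and 9 of 9 histone genes were called higher in the adult. The granule genes called include S100a9, which was no higher in the adult Mono codes than in adult B-lineage cells. Csf1r stood at 383 CPM at P0 against 59.0 CPM in the adult (6.49-fold), Ly6c2 at 22.6 against 1003 CPM (44.4-fold lower) and Irf8 at 77.4 against 516 CPM (6.67-fold lower). Igf2bp3, an RNA-binding protein gene of fetal progenitors, was at 78.8 CPM at P0, 76.3 CPM at E18.5 and 13.2 CPM in the adult.

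Between E18.5 and P0 the smallest share of genes was called among the 3 pairs of stages. Of 3493 genes compared, 0.916% were called higher at E18.5 (32 genes) and 1.17% higher at P0 (41 genes), and with the codes weighted equally 84 and 48. MHC class II genes led the first group, with 5 of 10 called and H2-Aa at 1403 CPM (1373 to 1434) at E18.5 against 95.5 CPM (87.2 to 104) at P0. Ccr2 (325 against 41.1 CPM), Irf8 (447 against 77.4 CPM) and Fn1, encoding fibronectin (253 against 22 CPM), were also called. Dendritic cell codes were outside these sums, DC2 with 43 cells at E18.5 and DC3 with 94 cells at P0. E18.5 Mono1ii, whose 56 cells with MHC class II alone had Irf8 at 2141 CPM, had r = 0.876 with P0 DC3. The part of the coding of cells in these differences was not tested. The 41 genes higher at P0 included those of osteoclasts (5 of 12), mast cells (5 of 10) and granules (5 of 11). Ctsk was at 418 CPM against 1.37 CPM at E18.5, Cma1 at 901 against 15.4 CPM and Elane at 205 against 4.79 CPM. Among cells with fewer than 15000 UMIs these counts were 10 and 15 genes, the log2 ratio of Mpo moved from -4.20 to -1.08 and that of Elane from -5.42 to -1.87, and Irf8 and Ccr2 were no longer called.

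The comparison was repeated in the single code of each stage with the highest Ly6c2, E18.5 Mono1i, P0 Mono1 and adult Mono4, leaving out Ly6c2 itself. Between E18.5 and the adult, 11.1% of 3443 genes were called higher at E18.5 (383 genes) and 2.50% higher in the adult (86 genes). C1qa was at 1319 CPM in E18.5 Mono1i and 0.524 CPM in adult Mono4, Lyz2 at 6203 against 243 CPM and Mpo at 23.7 against 5027 CPM. P0 against the adult gave 6.65% higher at P0 (219 of 3292 genes) and 1.76% higher in the adult (58), and E18.5 against P0 gave 1.20% (40 of 3340) and 1.26% (42). Mpo was thus higher in the adult code, and C1qa and Lyz2 were higher in the E18.5 code. These codes were not matched in kind of cell. Ly6c2 was found in few cells of the E18.5 and P0 codes and in most of adult Mono4. The resident macrophage limit was passed by 132 of 191 thinned E18.5 Mono1i cells and 120 of 223 thinned P0 Mono1 cells.

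In the codes with most P2ry12, Mono2 at E18.5 and at P0, 1.24% of 3224 genes were called higher at E18.5 (40 genes) and 2.98% higher at P0 (96 genes), leaving out P2ry12. Without mitochondrial, ribosomal protein and globin genes in the totals, these counts were 17 and 177. The genes higher at P0 included 5 of 10 mast cell genes, such as Cma1 at 1334 CPM against 8.54 CPM, and 8 of 12 granulocyte-monocyte progenitor genes, such as Elane at 236 against 7.12 CPM. Those higher at E18.5 included Maf (814 against 161 CPM), Nrp1 (167 against 31.9 CPM) and Sall1 (165 against 35.9 CPM), and the other microglia genes compared were each under 4-fold, for example Fcrls at 2.86-fold. Restricted to cells under 15000 UMIs, 2 genes were called higher at E18.5 and 13 higher at P0. Fewer UMIs reach the minimum of 50 in this restriction, so the fall in counts does not by itself place the difference in the deep cells. Among these cells Fcrls was at 2345 CPM at E18.5 and 2009.9 CPM at P0, and P2ry12 at 949 and 655 CPM. Summed Cma1 was at 2549 CPM in the shallower P0 cells and 1005 CPM in the deeper ones, but the mast cell list was unevenly spread, with a median share per cell of 0% in the shallower and 0.0111% in the deeper cells.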

How the data were processed

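Marrow HP cells were captured with the Chromium single cell 3′ v3.1 chemistry. The authors aligned and counted reads with Cell Ranger 3.1.0 on mm10 and filtered with R 4.0 and Seurat 3.1.5, keeping genes in at least 30 cells, and cells with at least 300 UMIs, under 7.5% mitochondrial expression and below the 98th percentile of genes and UMIs, the step meant to remove doublets. No doublets were called here. The deposited tables hold raw UMI counts per gene and cell, antibody counts, and per cell the mitochondrial fraction, library and cluster code. The 12 other columns of the cell table were not used. Totals of the 3 libraries were 64849542 (E18.5), 127489333 (P0) and 59206442 UMIs (adult), and 20275 genes were tabulated.

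Counts were summed per code with Python 3.11.15, numpy 2.4.6 and scipy 1.17.1. With 1 library per stage no test was made. The fold rule, thinning (seed 1) and floors are given with the results. The fold rule was run on simulated counts with counting error only, which cannot show how often it calls differences between libraries. Named genes are the 3 markers, the genes of 34 lists, the 10 leading genes of each code and the 10 largest ratios each way per pair of stages. Mitochondrial and ribosomal protein genes and Gm42418 were left out of leading genes. Of the listed genes, 2 were not in the table. The members, lists and limits were chosen with earlier results of these data known. Promoter stretches are from RefSeq (GRCm38.p6), the build of mm10. Alternatives covered fold limits, minima, depth, weighting and totals. Values of 1 gene of the lists are not reported here.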

Additional observations from a re-analysis of the deposited data

How the results depend on the processing

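No paired analysis was possible because each stage had a single library. No interval between replicates could be given, and stage and library cannot be told apart. Levels resting on few UMIs are imprecise, 50 UMIs giving bounds 25.8% below and 31.8% above. The share of Mono codes among HP cells became 19.4% at E18.5 and 18.6% in the adult with cells of at least 1000 UMIs, and 19.3% at E18.5 without the UD codes.

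Counts of genes past the fold limit are given with the stage of higher level first. Over all Mono codes, E18.5 over P0 had 32 genes at 4-fold, and had 337 at 2-fold, 9 at 8-fold, 237 with no CPM minimum and at least 10 UMIs, 12 by mean of per-cell CPM, 10 after thinning, 84 with codes weighted equally and 10 with cells under 15000 UMIs. P0 over E18.5 had 41, and 202 at 2-fold, 23 at 8-fold, 439 with no CPM minimum, 65 without mitochondrial, ribosomal protein and globin genes, 12 after thinning and 15 under 15000 UMIs. P0 over adult had 213, and 460 at 2-fold, 135 at 8-fold, 1132 with no CPM minimum, 132 after thinning and 371 under 15000 UMIs. Adult over P0 had 68, and 163, 34 and 252 under the first 3 of these and 110 under 15000 UMIs. E18.5 over adult had 450, and 939 at 2-fold, 273 at 8-fold, 1471 with no CPM minimum and 242 after thinning. Adult over E18.5 had 99, and 361 at 2-fold, 54 at 8-fold, 436 with no CPM minimum, 189 without mitochondrial, ribosomal protein and globin genes and 152 under 15000 UMIs.

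In the codes with most Ly6c2, E18.5 over P0 had 40 genes, and 271 at 2-fold, 6 at 8-fold, 162 with no CPM minimum, 24 by mean of per-cell CPM, 10 after thinning and 18 under 15000 UMIs. P0 over E18.5 had 42, and 140 at 2-fold, 23 at 8-fold, 317 with no CPM minimum and 9 after thinning. P0 over adult had 219, and 447 at 2-fold, 1084 with no CPM minimum, 347 by mean of per-cell CPM, 94 after thinning and 370 under 15000 UMIs. Adult over P0 had 58, and 193 at 2-fold, 19 at 8-fold, 250 with no CPM minimum, 96 without mitochondrial, ribosomal protein and globin genes and 153 under 15000 UMIs. E18.5 over adult had 383, and 754 at 2-fold, 245 at 8-fold, 1030 with no CPM minimum and 108 after thinning. Adult over E18.5 had 86, and 356 at 2-fold, 35 at 8-fold, 338 with no CPM minimum, 160 without mitochondrial, ribosomal protein and globin genes and 246 under 15000 UMIs.

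In the Mono2 codes, E18.5 over P0 had 40 genes, and 571 at 2-fold, 0 at 8-fold, 175 with no CPM minimum, 4 by mean of per-cell CPM, 17 without mitochondrial, ribosomal protein and globin genes, 0 after thinning and 2 under 15000 UMIs. P0 over E18.5 had 96, and 468, 56, 262, 49, 177, 4 and 13 under the same settings. Looser limits admit more genes and thinning leaves fewer above the UMI minimum by construction; the cause of the other shifts was not tested. The limit of 15000 UMIs was chosen after seeing the data. The log2 ratio of Hmga2 between E18.5 Mono1i and P0 Mono1 turned from -2.41 to 0.084 under 15000 UMIs. Spearman correlation kept 19 of the 20 nearest codes and a pseudocount of 1 kept 16.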
